A study of Arabidopsis thaliana with 2 samples.

Results

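Genes with a long retained intron were taken from the deposited list of intron retention events of the Arabidopsis thaliana lefko mutant. Each gene of that list was given its shortest listed intron, and introns of over 250 nt were kept. A list of 26 names was set aside. It holds SR30 and other splicing factors, and also kinase, metabolism and transport genes such as ckl3, NIA2 and CCC1. Counts by gene group below therefore cover only the genes that remained. These steps left 51 of the 199 genes with a retention event. The limit was passed by 65 genes, of which 14 were set aside by name. All 5 event tables together hold 343 events in 281 genes, and 214 of these events are intron retention.

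RNA came from cotyledons, the seed leaves, of lefko seedlings and of wild-type seedlings, both in the Col-0 accession and both grown on sucrose-supplemented medium under long days without any other treatment. Each genotype has 1 labelled sample. The mutant appears as lefko1 in the protocol of the labels but as lefko2 in the sample title. The labels give seeds as the source where the protocol gives cotyledons, and do not state the age of the plants, the mutated gene or the kind of allele. The tables hold splicing events and no expression levels, so cotyledon identity could not be checked against marker genes.

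Introns are removed from pre-mRNA by the spliceosome, which reads a 5' splice site, usually GT, and a 3' splice site, usually AG. A retained intron stays in the mature transcript, and in plants this is the most common form of alternative splicing. Plant introns are short and rich in U compared with exons. A retained intron within coding sequence usually brings a premature stop codon, and such RNAs can be kept in the nucleus or degraded by nonsense-mediated decay, while an intron in an untranslated region leaves the coding sequence as it is.

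Reads were given per event as inclusion reads, which carry the intron, and skipping reads, which cross the junction that leaves it out. The inclusion share is the percentage of inclusion reads among both kinds, and a change is lefko minus wild type in percentage points. Each genotype has 3 counts per event, called count sets here. No source says whether the sets came from separate plants, libraries or runs, so every SD and every limma p-value below measures only the spread between sets, which may be technical. All listed events had already passed the authors' test on the same reads (largest FDR of the retention events 0.0474 in the authors' deposited table). Over all 343 events the reads per set summed to 166819 to 178604 in lefko and 168946 to 187225 in wild type, and over the 51 long introns to 30520 to 32772 in lefko and 26424 to 29094 in wild type.

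In 7 of the 29 long introns that interrupt coding sequence, the stop codon met first was formed by the 5' splice site itself. All 7 begin after the second base of a codon, so that the intron's G completes the codon and the next bases, TAA or TGA, are a stop at intron base 2. They are shown because they carry the earliest stops of the list, with the last 5 exon bases and the intron's first g in lower case and the stop in capitals (RefSeq, TAIR10.1, sense strand, 5' to 3').
ASP4 (chr1:23256696-23256952, minus strand): gacctgTAA
AT5G44920 (chr5:18139468-18139729, plus strand): tacaagTAA
BT1 (chr5:25333672-25333947, minus strand): tgcaggTAA
AT1G15280 (chr1:5254837-5255181, plus strand): acatggTAA
AT4G34150 (chr4:16355689-16356377, plus strand): gggaggTAA
CYCT1;3 (chr1:9611877-9612589, plus strand): catgtgTAA
AT1G10890 (chr1:3628230-3629097, plus strand): agcaggTGA

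Splice sites are shown for the 3 long introns with the lowest FDR and for the 2 introns that begin with GC. They were picked for these traits and do not show the range over all long introns. Capitals mark the first 2 and the last 2 intron bases. The 5' site is given with 3 exon bases and 10 intron bases, and the 3' site with 20 intron bases and 3 exon bases.
AT5G54710 5' site (chr5:22230106-22230358, minus strand): cagGTttaagatt
AT5G54710 3' site: ttgttttaatatataaacAGtta
PAP1 5' site (chr2:108115-108504, minus strand): cagGTaacctcaa
PAP1 3' site: gtttgtgtttttggtggcAGgac
AT4G34150 5' site: gagGTaattacat
AT4G34150 3' site: tcaacctttctgtcttgtAGatt
LLG1 5' site (chr5:22736309-22736743, plus strand): aaaGCaagtttct
LLG1 3' site: ttcctctttctatgaaacAGcat
AT1G76360 5' site (chr1:28644349-28645546, minus strand): cagGCaagtaact
AT1G76360 3' site: tatatattataaaattgcAGtgt

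Retention of the long introns was higher in lefko in 41 genes and lower in 10, with a median change of 16.4 points over the 51. The 10 include DL1C, whose listed junction joins it to a neighbouring gene, so that its share is not one of retention within its own transcript. The 41 higher introns had a median change of 20.1 points, up to 45.6 in the CTP synthase gene AT4G20320, and the 10 lower ones a median of -7.26, down to -21.9 in the CC-NBS-LRR disease resistance gene AT5G48620. Of all 214 listed retention events 83.2% were higher and 16.8% lower, with a median change of 19.0 points, so the directions of the long introns, 80.4% of them higher, lie near those of the whole retention list. In bulk RNA, a changed share within cells and changed numbers of cells of a type cannot be told apart. A change of at least 10 points was found in 36 of the 51 and one of at least 20 points in 22. Of all 214 retention events 188 changed by at least 10 points and 110 by at least 20, both larger parts than among the long introns.

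The median inclusion share of the long introns was 84.1% in lefko and 66.2% in wild type, against 63.4% in lefko and 41.9% in wild type for the other 163 retention events. The share was over 50% for 47 of the 51 introns in lefko and for 37 in wild type. Since the counting rule is not known, a raw share of a long intron and one of a short intron are not on 1 scale, and no share of transcripts can be read from them. With inclusion reads divided by 2, no change turned its direction, which it could not do in the 47 introns whose sets do not overlap. The division made 19 of the 51 changes over 1.5 times as large. These were all 10 lower introns, by 1.51 to 1.91 times, and 9 higher ones, by 1.53 to 1.96 times. With the division the changes of the higher ones were 3.74 points in WRI4, 7.55 in JAZ10, 8.25 in CYCT1;3, 9.44 in AT1G69840, 15.8 in AT5G01570, 16.6 in AT1G01240, 17.8 in BPC1, 23.8 in CHAL and 28.6 in ASP4. The changes of the lower ones not given further on were -9.59 points in AT1G09863, -12.7 in AT1G17090, -13.6 in LBD37, -15.5 in AT5G08480, -33.0 in AT5G48620 and -33.2 in AT3G00740. The median SD over sets was 2.16 points in lefko and 3.41 points in wild type.

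**Figure D1:**
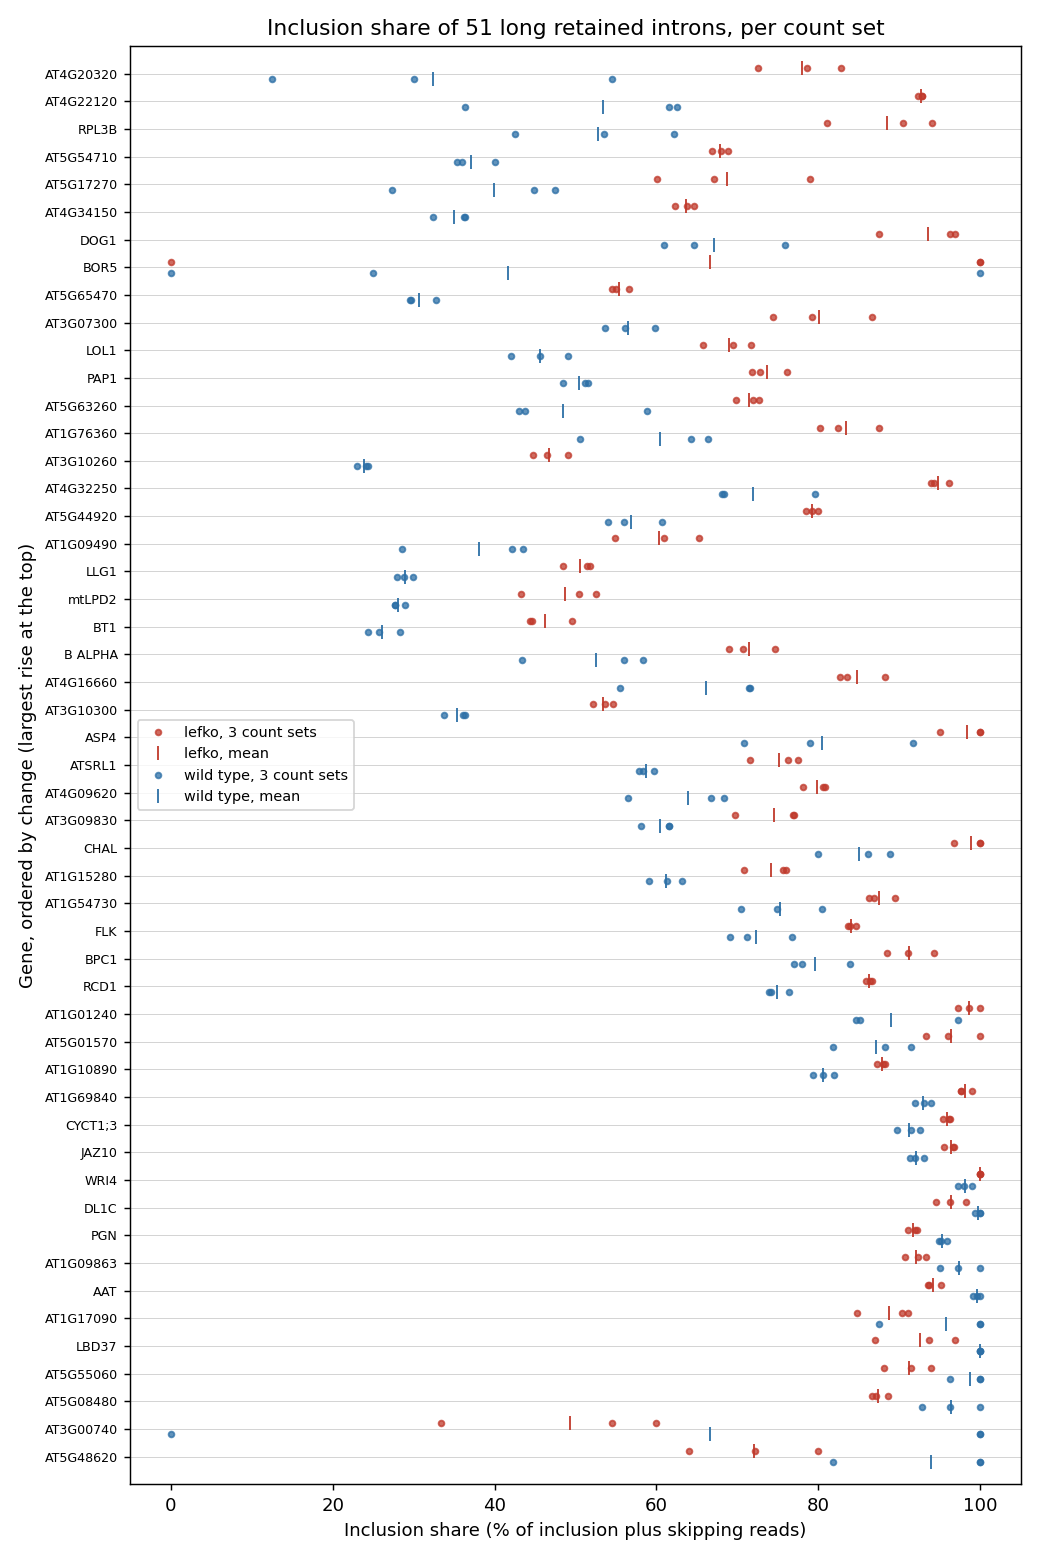
Inclusion share of each long intron in percent (horizontal axis) for the 51 genes (vertical axis, largest rise at the top), with 1 point per count set and a bar for the mean; lefko points lie above wild-type points in each row. The sets of the genotypes do not overlap in 47 of the 51 rows, and BOR5, AT3G00740, AT1G17090 and AT1G01240 are the rows where they do.

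Limma on the log2 odds of inclusion, fitted over all 343 events with Benjamini-Hochberg adjustment, put 45 of the 51 introns under an adjusted p of 0.05, with 39 higher and 6 lower in lefko. Over all events, which include classes other than retention, it called 88% and, as higher in lefko, 72%. Of the 214 retention events it called 193, with 166 of them higher in lefko. The count of 45 is thus the background rate of a table that holds called events. The median log2 odds difference was 1.33 for the 51 introns and 1.46 for all retention events. With each count set left out in turn, 29 introns stayed under 0.05 every time and 16 of the 45 did not.

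The sets of lefko and wild type did not overlap in 47 introns, against 93% of all retention events. At least 20 reads in each of the 6 sets were present for 40 introns, of which 35 were higher and 5 lower. The 6 introns that did not pass limma were those of AT5G01570 (adjusted p = 0.0523), AT1G09863 (0.0944), AT1G17090 (0.225), AT3G00740 (0.263), BOR5 (0.346) and LBD37 (0.412), and 5 of these 6 had under 20 reads in at least 1 set, AT1G09863 being the exception.

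All 29 long introns within coding sequence were higher in lefko, with a median change of 20.6 points. The 10 lower introns all lay elsewhere: 5 of 16 in a 5' UTR, 1 of 2 in a 3' UTR, 2 of 2 in noncoding transcripts and 2 of 2 on junctions that no annotated transcript of the gene has. The 16 introns in a 5' UTR had a median change of 11.7 points. Among the other retention events, 105 of 112 within coding sequence and 18 of 28 in a 5' UTR were higher. No test was made of these shares, since all of the events had been selected for their change.

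**Figure D2:**
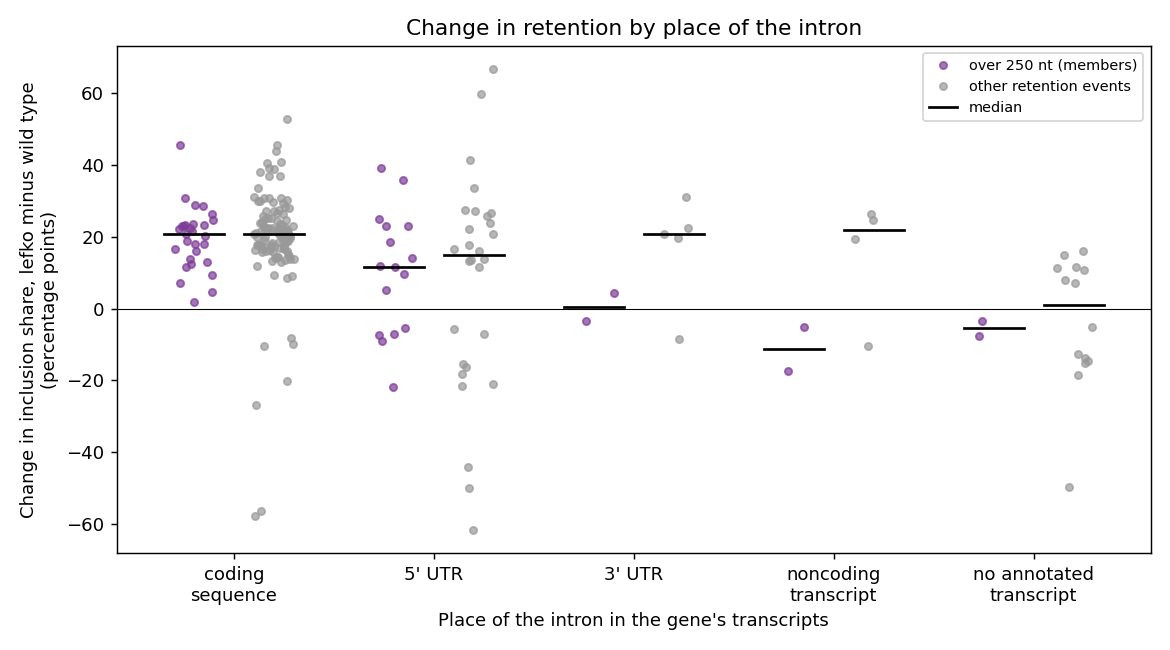
Change in inclusion share in percentage points (vertical axis) by the place of the intron in the gene's own annotated transcripts (horizontal axis); points are introns of the list (left in each pair) and other retention events (right), bars are medians. All 29 points of long introns within coding sequence lie above 0.

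Changes showed no order by length. The 51 introns span 253 to 1198 nt, with a median of 417 nt, where annotated introns of nuclear protein-coding genes have a median of 101 nt and 17.1% are over 250 nt. Spearman's rho between length and change was -0.018 over the 51 introns, and between length and wild-type share 0.20. Between wild-type share and change it was -0.83, and this is given only as a description: a share near 100% can hardly rise, the wild-type share enters both measures, and events with no change are not in the table. The introns just below the limit were those of AAP5 (241 nt, 22.4 points), NAC082 (248 nt, 25.8 points) and AT3G26510 (250 nt, 22.4 points), all higher in lefko. Just above it were AT5G54710 (253 nt, 30.7 points), ASP4 (257 nt, 17.9 points) and AT5G44920 (262 nt, 22.3 points), also all higher.

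**Figure D3:**
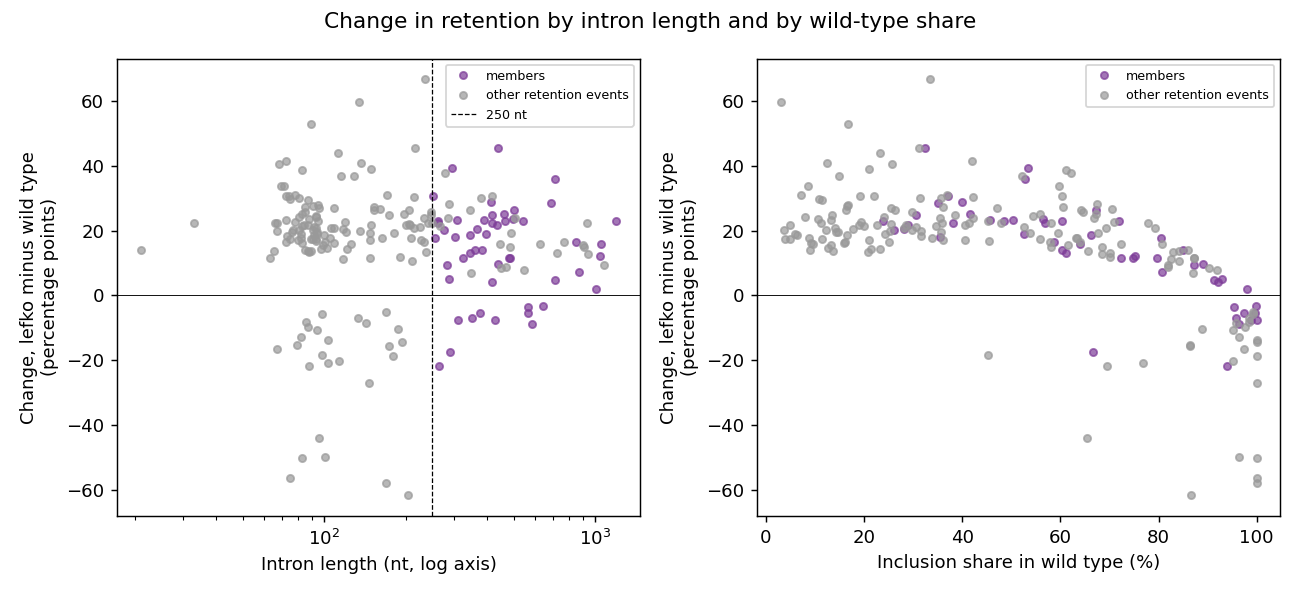
Change in inclusion share, lefko minus wild type, in percentage points (vertical axes) against intron length in nt on a log axis (left) and against the wild-type share in percent (right), for the 51 long introns and the other 163 retention events; the dashed line is the limit of 250 nt. Changes of the long introns show no order by length, while introns with a wild-type share near 100% have small or negative changes.

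Among the 51 introns the 3 lowest FDRs of the authors' deposited table belong to AT5G54710, PAP1 and AT4G34150. AT5G54710 encodes an ankyrin repeat protein, a class built of stacked helical repeats that bind other proteins. Its first intron had 180, 183 and 172 inclusion reads and 89, 83 and 81 skipping reads in the lefko sets, against 205, 130 and 175 inclusion and 307, 237 and 311 skipping reads in the sets of wild type. The share was 67.9% ± 0.944 in lefko and 37.2% ± 2.51 in wild type (SD, 3 sets each), a rise of 30.7 points (SE 1.55) with a limma adjusted p of 0.00162. Here the inclusion reads were alike and the skipping reads were fewer in lefko. The FDR in the authors' deposited table was 3.82e-12, the lowest among the 51 introns.

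PAP1 encodes a phosphatidic acid phosphatase, which removes the phosphate from the signalling lipid phosphatidic acid. The lefko sets had 1104, 1114 and 1028 inclusion and 432, 417 and 321 skipping reads, and the wild-type sets 579, 509 and 532 inclusion and 616, 486 and 499 skipping reads. Both reads moved, in opposite directions, and no lefko set reached into the wild-type range. The share was 73.6% ± 2.29 in lefko and 50.4% ± 1.70 in wild type, and the rise was 23.2 points (SE 1.65, limma adjusted p = 0.00196). An alternative 5' splice site event of the gene is listed on the same junction.

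AT4G34150 encodes a protein with a calcium-dependent lipid-binding C2 domain and has the most reads of these 3. The lefko sets had 3655, 3578 and 3514 inclusion reads and 2206, 2029 and 1920 skipping reads. The wild-type sets had 2214, 1795 and 1911 inclusion reads and 3875, 3743 and 3368 skipping reads. The retained form thus held the majority of reads in lefko and the spliced form in wild type, with shares of 63.6% ± 1.17 in lefko and 35.0% ± 2.23 in wild type. The rise was 28.6 points (SE 1.46, limma adjusted p = 0.00162), and the retained form stops at intron base 2, as printed above. In 11 of the 51 introns the share was over 50% in lefko and under 50% in wild type, on reads as deposited. Which form holds the majority, here and in AT4G34150, depends on the counting rule, which is not known.

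Kinase and phosphatase genes, taken by words in the gene descriptions, were 5, and all 5 rose and passed limma, with a median of 22.8 points. Since 88% of all events were called and 83.2% of the retention events were higher, this count lies near the background. Besides PAP1 they are the protein kinase genes AT1G76360, AT3G09830 and AT4G32250 and B ALPHA, which encodes a regulatory subunit of protein phosphatase 2A. AT1G76360 has the longest intron of the list, 1198 nt, which begins with GC and holds 35 in-frame stop codons. Its lefko sets had 146, 166 and 161 inclusion and 31, 41 and 23 skipping reads, against 83, 46 and 75 inclusion and 46, 45 and 38 skipping reads in wild type. That gave a share of 83.4% ± 3.74 in lefko and 60.4% ± 8.61 in wild type, a rise of 23.0 points (SE 5.42, limma adjusted p = 0.00612). The 5' UTR intron of AT4G32250 rose by 22.8 points to 94.8% ± 1.18 in lefko, against 72.0% ± 6.54 in wild type. B ALPHA rose by 18.9 points, and AT3G09830 by 14.1 points. The limma adjusted p of AT3G09830 was 0.0081 with all sets, 0.0694 without the first set of each genotype and 0.0598 without the third.

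The word list for enzymes of metabolism matched 7 genes, by words such as transferase, which need not mean a metabolic enzyme. Of these 7 genes 6 were higher and 1 lower, and all 7 passed limma (88% of all events called). The higher ones are AT4G20320, AT5G17270, AT5G65470, AT3G07300, mtLPD2 and ASP4, and the lower one is AAT. AT5G65470 encodes an O-fucosyltransferase family protein, an enzyme class that adds fucose to glycans or proteins. It had 169, 164 and 172 inclusion and 141, 134 and 132 skipping reads in the lefko sets and 81, 54 and 68 inclusion and 166, 129 and 161 skipping reads in the sets of wild type. The lefko sets were nearly alike, and all lay above the wild-type sets. The share was 55.4% ± 1.07 in lefko and 30.7% ± 1.85 in wild type, a rise of 24.7 points (SE 1.23, limma adjusted p = 0.00167).

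AT3G07300 is described as a NagB/RpiA/CoA transferase-like protein. The lefko sets had 181, 191 and 151 inclusion and 28, 50 and 52 skipping reads, and the wild-type sets 97, 76 and 52 inclusion and 76, 51 and 45 skipping reads. Mainly inclusion reads differed. The share was 80.1% ± 6.15 in lefko and 56.5% ± 3.14 in wild type, a rise of 23.6 points (SE 3.99, limma adjusted p = 0.00559). A second listed junction of the same gene, 504 nt long and with the same 3' site, rose by 23.8 points, and the reads of both events overlap.

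AT5G17270 is described as a protein prenylyltransferase superfamily protein, a family label that does not by itself give an enzyme activity. Its lefko sets had 95, 102 and 98 inclusion and 63, 50 and 26 skipping reads, against 28, 22 and 15 inclusion and 31, 27 and 40 skipping reads in wild type. The groups do not overlap, but both spread widely, with shares of 68.8% ± 9.56 in lefko and 39.9% ± 11.0 in wild type. The rise of 28.9 points (SE 8.41) had a limma adjusted p of 0.0169, which became 0.0613 without the second set of each genotype, and the rise was 17.4 points without the third set. AT4G20320, for CTP synthase, which makes the nucleotide CTP from UTP, had the largest rise of the list, 45.6 points, on few reads: 24, 29 and 22 inclusion and 5, 11 and 6 skipping reads in lefko, against 6, 2 and 6 inclusion and 14, 14 and 5 skipping reads in wild type. Its limma adjusted p was 0.012 with all sets and 0.0963 without the first.

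ASP4 and AAT both encode aspartate aminotransferases, enzymes that move amino groups between amino acids and keto acids, and their introns moved in opposite directions. ASP4 had 16, 15 and 19 inclusion and 0, 0 and 1 skipping reads in the lefko sets and 15, 11 and 17 inclusion and 4, 1 and 7 skipping reads in the sets of wild type. The rise of 17.9 points (SE 6.29) rests on these few skipping reads and was 28.6 points with inclusion reads divided by 2, and the limma adjusted p of 0.00896 became 0.0814 without the first set. The 5' UTR intron of AAT, the plastid enzyme, is described with the lower introns below. The intron of mtLPD2, a mitochondrial lipoamide dehydrogenase, which is a subunit shared by several 2-oxo acid dehydrogenase complexes, had shares of 48.7% ± 4.89 in lefko and 28.1% ± 0.755 in wild type, a rise of 20.6 points (SE 2.86, limma adjusted p = 0.00281).

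The word list for transcription, which includes the words zinc finger, matched 3 genes. All 3 were higher and passed limma, where 72% of all events and 166 of the 214 retention events were called as higher. They are the CCCH zinc finger gene AT5G63260, the mTERF family gene AT4G09620 and WRI4, an AP2/ERF transcription factor known for control of cuticular wax synthesis. AT5G63260 had 184, 226 and 171 inclusion and 69, 88 and 74 skipping reads in the lefko sets, against 87, 71 and 90 inclusion and 112, 94 and 63 skipping reads in the sets of wild type. The third wild-type set stood apart with a share of 58.8%, against 43.7% and 43.0% in the other wild-type sets. The share was 71.5% ± 1.52 in lefko and 48.5% ± 8.93 in wild type, a rise of 23.0 points (SE 5.23). Its limma adjusted p was 0.00666 with all sets, 0.0613 without the first and 0.0526 without the second set.

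AT4G09620 belongs to the mTERF family, which regulates gene expression in mitochondria and plastids. Its intron of 1051 nt had 413, 422 and 405 inclusion and 116, 102 and 96 skipping reads in lefko and 276, 239 and 324 inclusion and 212, 119 and 150 skipping reads in wild type. All lefko sets were above the wild-type sets, with a share of 79.8% ± 1.52 in lefko and 63.9% ± 6.40 in wild type, and the rise was 15.9 points (SE 3.80, limma adjusted p = 0.00713). In the transcript used only 3 of 639 coding bases precede this intron. The intron of WRI4, 1008 nt long, had no skipping read among 929 reads in lefko, which allows a skipping share of up to 0.323%, and 26 among 1342 in wild type. The share was thus 100% in lefko and 98.1% ± 0.925 in wild type.

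Some regulators of transcription carry names that the word lists do not catch. BPC1, a GAGA-binding factor, rose by 11.7 points to 91.3% ± 2.92 in lefko, against 79.6% ± 3.76 in wild type, and its limma adjusted p of 0.0105 became 0.0692 without the second set. CYCT1;3 encodes a T-type cyclin, whose class partners kinases of transcription elongation, and rose by 4.68 points to 96.0% ± 0.507 in lefko, against 91.3% ± 1.42 in wild type. LBD37, a LOB-domain factor known from nitrogen responses, had 231 inclusion and 16 skipping reads in lefko and 27 inclusion and 0 skipping reads in wild type. At 27 reads a count of 0 allows a skipping share of up to 11.1%, so the lower share in lefko, 92.6% ± 5.05, was not distinguishable from wild type at this depth, although the event is listed with an FDR of 0.00195 in the authors' deposited table. Its log2 odds difference depends on what is added to both counts: it was -0.49 with 0.5, 0.31 with 1, and -2.65 with 0.1, where it passed limma (adjusted p = 0.00984). Without the third set it was 0.19, and the change of -7.45 points was then -4.69.

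RNA-binding and splicing-related genes are few on the list, since the rule set SR30, U1-70K and other splicing factors aside. Of the list's genes described here, only FLK was matched by a word list. ATSRL1, of the PRP38 family of splicing factors, rose by 16.4 points to 75.1% ± 3.14 in lefko, against 58.7% ± 0.976 in wild type (SE 1.90, limma adjusted p = 0.00316). AT1G15280, whose product is described as a CASC3/Barentsz eIF4AIII-binding protein and thus as a relative of an exon junction complex component, rose by 13.0 points to 74.2% ± 2.93 in lefko, against 61.2% ± 2.01 in wild type. AT1G10890, an arginine/glutamate-rich protein, rose by 7.20 points to 87.8% ± 0.467 in lefko, against 80.6% ± 1.30 in wild type. FLK, a KH-domain RNA-binding protein that promotes flowering, rose by 11.7 points to 84.1% ± 0.518 in lefko, against 72.4% ± 3.97 in wild type. The limma call was lost for AT1G15280 without the second set (adjusted p = 0.0692) or the third (0.0565), and for FLK without the second (0.0520), while the calls of ATSRL1 and AT1G10890 held.

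By the word list for RNA, which catches FLK and 2 noncoding genes, 1 of 3 was higher and passed limma, and 2 were lower and did not, against 83.2% of the retention events higher and 88% of all events called. AT1G09863, annotated as a natural antisense transcript, had 118, 98 and 72 inclusion and 12, 7 and 6 skipping reads in the lefko sets, against 35, 35 and 19 inclusion and 1, 0 and 1 skipping reads in the sets of wild type. The share was 92.1% ± 1.29 in lefko and 97.4% ± 2.51 in wild type, which did not pass limma (adjusted p = 0.0944). AT3G00740 had only 19 reads in lefko and 17 in wild type, and its wild-type sets ran from 0% to 100%. Its change of -17.4 points was -3.33 without the first set, -6.06 without the second and -42.7 without the third, where it passed limma (adjusted p = 0.0220). The introns of these 2 noncoding genes overlap no other annotated gene.

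The defence or stress word list held 3 genes, 2 higher and 1 lower, all past limma, against 83.2% of the retention events higher and 88% of all events called. They are the Hsp70 gene AT4G16660, AT4G22120 of the early-responsive-to-dehydration family and the resistance gene AT5G48620. LOL1 and RCD1 are on no word list. LOL1, a zinc finger protein that promotes cell death, had 124, 127 and 134 inclusion and 49, 66 and 59 skipping reads in the lefko sets and 172, 163 and 152 inclusion and 178, 225 and 181 skipping reads in the sets of wild type. Both read classes were lower in lefko, the skipping reads by more. The share was 69.0% ± 2.96 in lefko and 45.6% ± 3.57 in wild type, a rise of 23.4 points (SE 2.68, limma adjusted p = 0.00224).

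RCD1, a regulator of responses to oxidative stress, has one of the best covered introns, with 3626, 3810 and 3440 inclusion and 593, 598 and 531 skipping reads in lefko and 2143, 1886 and 1784 inclusion and 744, 582 and 630 skipping reads in wild type. Its rise was 11.5 points (SE 0.816, limma adjusted p = 0.00215), to 86.3% ± 0.352 in lefko, against 74.8% ± 1.37 in wild type, and most reads of this event were inclusion reads in both genotypes. A stop begins at intron base 6, shown here with 4 exon bases before it and in capitals (chr1:11614907-11615231, plus strand).
RCD1: gaaggtgatTAG

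AT4G22120, whose family includes osmotically gated calcium channels, had 5 skipping reads in lefko and 28 in wild type, and rose by 39.2 points (SE 8.56). AT4G16660 rose by 18.7 points to 84.8% ± 2.96 in lefko, against 66.2% ± 9.21 in wild type. The intron of AT5G48620 lies in the 5' UTR and had 53 inclusion and 20 skipping reads in lefko and 27 inclusion and 2 skipping reads in wild type. The share fell by 21.9 points (limma adjusted p = 0.0367), which did not pass without the second set (0.171) or the third (0.210).

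Genes of hormone response, development and seed biology included JAZ10, DOG1, CHAL and BT1, which no word list matched. DOG1 controls seed dormancy, and the intron listed here is the last of its transcript. The lefko sets had 26, 31 and 28 inclusion and 1, 1 and 4 skipping reads, and the wild-type sets 25, 22 and 44 inclusion and 16, 12 and 14 skipping reads. The difference lies in the skipping reads, with a share of 93.6% ± 5.25 in lefko and 67.2% ± 7.75 in wild type. The rise of 26.4 points (SE 5.40) had a limma adjusted p of 0.00612, which became 0.0613 without the first set, and an alternative 5' splice site event is listed on the same junction.

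JAZ10 encodes a repressor of jasmonate signalling whose alternative splicing at its last intron is well known. Here 2 junctions with the same 3' end are listed. The shorter, 417 nt, whose 5' site lies in the 3' UTR of the transcripts that use it, rose by 4.22 points to 96.4% ± 0.700 in lefko, against 92.1% ± 0.852 in wild type. The longer, 470 nt, which interrupts coding sequence, rose by 8.94 points to 90.8% ± 1.81 in lefko, against 81.9% ± 0.428 in wild type, and retention brings a stop at intron base 2, in capitals (chr5:4219993-4220462, plus strand).
JAZ10: gagaggTAA
JAZ10 also had fewer reads of both kinds in lefko at the shorter junction, 1631 inclusion and 61 skipping reads, against 2928 inclusion and 249 skipping reads in wild type.

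CHAL, a secreted peptide of the family that patterns stomata, rose by 13.9 points to 98.9% ± 1.86 in lefko, against 85.0% ± 4.56 in wild type. BT1, a scaffold protein with BTB and TAZ domains, has 2 listed introns. The shorter, 276 nt, rose by 20.1 points to 46.2% ± 2.90 in lefko, against 26.1% ± 2.04 in wild type, and the longer, 346 nt, by 26.5 points to 52.8% ± 1.87 in lefko, against 26.3% ± 0.696 in wild type. Its reads differed in number as well: at the shorter intron skipping reads were 660 in lefko and 3004 in wild type.

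The next genes also belong to no fixed list and were grouped after their values were seen. LLG1, a GPI-anchored chaperone of receptor kinases of the FERONIA type, has a GC intron with 2044, 1901 and 1743 inclusion and 1905, 1791 and 1851 skipping reads in lefko and 1050, 1113 and 1094 inclusion and 2704, 2748 and 2568 skipping reads in wild type. It rose by 21.7 points (SE 1.18, limma adjusted p = 0.00187) to 50.6% ± 1.81 in lefko, against 28.9% ± 0.954 in wild type. The other GC intron, that of AT1G76360, rose by a similar 23.0 points. Reticulon family gene AT3G10260, whose class shapes the endoplasmic reticulum, rose by 22.9 points in its 5' UTR intron, and the EF-hand gene AT3G10300, of a calcium-binding class, by 18.1 points.

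AT5G44920 encodes a TIR-KASH protein, a class anchored in the nuclear envelope. It had 84, 102 and 80 inclusion and 22, 28 and 20 skipping reads in the lefko sets and 37, 37 and 27 inclusion and 24, 29 and 23 skipping reads in the sets of wild type. Skipping reads were alike and inclusion reads were more numerous in lefko, with a share of 79.2% ± 0.769 in lefko and 56.9% ± 3.41 in wild type and a rise of 22.3 points (SE 2.02, limma adjusted p = 0.00187). The intron overlaps 2 other annotated genes, AT5G06665 and AT5G44930, both on the opposite strand, and their part in the reads was not tested. AT1G54730, of the major facilitator family of sugar transporters, has an intron of 1044 nt with 509, 594 and 561 inclusion and 60, 94 and 85 skipping reads in lefko, against 255, 181 and 218 inclusion and 62, 76 and 73 skipping reads in wild type. Again only inclusion reads differed clearly. The rise was 12.3 points (SE 3.05), to 87.5% ± 1.67 in lefko, against 75.3% ± 5.02 in wild type, and the limma adjusted p of 0.00774 became 0.0585 without the third set. An event of another class is listed on the same junction.

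The remaining higher introns ran from 5.15 to 35.8 points. RPL3B, for a ribosomal protein L3 isoform, rose by 35.8 points in its 5' UTR intron, on 65 inclusion and 10 skipping reads in lefko and 60 inclusion and 53 skipping reads in wild type. AT1G09490, an NAD(P)-binding Rossmann-fold protein, rose by 22.3 points, and its limma call was lost without the first set (adjusted p = 0.0535) or the third (0.0616). AT1G69840, of the SPFH/Band 7 membrane scaffold family, rose by 5.15 points. The uncharacterized gene AT1G01240 rose by 9.61 points, with overlapping sets, and did not pass limma without the first set (0.10), without the third (0.218) or with 0.1 added to both counts (0.0595). AT5G01570, a plectin-like gene, had shares of 96.4% ± 3.36 in lefko and 87.2% ± 4.89 in wild type, and did not pass limma, except without the second set (adjusted p = 0.0324). The intron of AT5G01570 overlaps another annotated gene, AT5G00780, on the same strand, whose part in the reads was not tested. BOR5, of the boron transporter family, had 9 inclusion reads and 1 skipping read in lefko and 3 inclusion and 4 skipping reads in wild type. Its difference of 25.0 points turned to -12.5 without the third set and to 0 without the first, and was 87.5 without the second, where it passed limma (adjusted p = 0.00949).

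Among the lower introns with at least 20 reads in each set, AAT had the clearest change. The lefko sets had 164, 196 and 160 inclusion and 11, 10 and 11 skipping reads, and the wild-type sets 239, 203 and 246 inclusion and 2, 0 and 1 skipping reads. Each lefko set had at least 10 reads of the spliced form and no wild-type set more than 2. The share was 94.1% ± 0.872 in lefko and 99.6% ± 0.415 in wild type, so that it fell by 5.45 points (SE 0.558) with a limma adjusted p of 0.00284. With inclusion reads divided by 2 it fell by 10.2 points.

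PGN encodes a mitochondrial pentatricopeptide repeat protein, a class that binds organelle RNA, known from defence against necrotrophic fungi. Its 3' UTR intron had 1888, 1956 and 1658 inclusion and 159, 170 and 163 skipping reads in lefko and 2269, 2317 and 2733 inclusion and 114, 123 and 118 skipping reads in wild type. Inclusion reads were fewer and skipping reads more numerous in lefko in all sets. The share was 91.8% ± 0.628 in lefko and 95.3% ± 0.465 in wild type, so that it fell by 3.58 points (SE 0.451, limma adjusted p = 0.00457). It fell by 6.33 points with inclusion reads divided by 2. This intron overlaps another annotated gene, whose part in the reads was not tested.

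The junction listed for AT5G55060, the catalytic subunit of a Rab3 GTPase-activating protein, differs from an annotated intron by 2 nt. It starts at the annotated 5' site, at position 22342182 of chromosome 5, and ends at 22342492, where the annotated intron ends at 22342490. The sites form a tandem, with the last 2 intron bases in capitals in each reading.
AT5G55060 3' site, listed: attggaattttgttggagAGgag
AT5G55060 3' site, annotated: aaattggaattttgttggAGagg
The listed junction had 133, 125 and 108 inclusion and 18, 8 and 10 skipping reads in the lefko sets and 51, 45 and 63 inclusion and 2, 0 and 0 skipping reads in the sets of wild type. More reads of both kinds were present in lefko. The share was 91.2% ± 2.97 in lefko and 98.7% ± 2.18 in wild type, and fell by 7.55 points (SE 2.12). It fell by 13.7 points with inclusion reads divided by 2. Its limma adjusted p was 0.0201 with all sets, 0.0804 without the second and 0.114 without the third. Whether reads spliced at the annotated site were counted for this event is not stated in the labels or headers. For the listed junctions of AT4G32250, of 540 and 544 nt, skipping reads in lefko were 28 and 1, so they were counted per junction there. If AT5G55060 was counted in the same way, its share leaves out reads spliced at the annotated site and is not a level of retention.

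The junction listed for DL1C, a dynamin-related protein of membrane fission, joins 2 genes. It spans 5111617 to 5112259 of chromosome 1 on the minus strand, while DL1C ends at 5111746 and its upstream neighbour on the same strand, AT1G14840, covers 5111701 to 5115514. The lefko sets had 176, 182 and 174 inclusion and 3, 7 and 10 skipping reads, and the wild-type sets 176, 153 and 194 inclusion and 0, 1 and 0 skipping reads. Reads that join both genes were thus 20 in lefko and 1 in wild type. The share was 96.4% ± 1.88 in lefko and 99.8% ± 0.375 in wild type, and fell by 3.39 points (SE 1.11). It fell by 6.49 points with inclusion reads divided by 2, and the limma adjusted p of 0.00762 became 0.0629 without the third set. Inclusion reads can come from either gene here, and the share is not one of retention within a transcript of DL1C.

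The other lower introns were those of AT1G17090, which is uncharacterized, and AT5G08480, which encodes a VQ motif protein, a class that binds WRKY factors. AT5G08480 had 84 inclusion and 12 skipping reads in lefko and 47 inclusion and 2 skipping reads in wild type, and the share fell by 8.94 points, with a limma adjusted p of 0.0159 that became 0.110 without the first set, 0.0880 without the third and 0.0506 with 1 added to both counts. The intron of AT5G08480 overlaps another annotated gene, AT5G08490, on the opposite strand, whose part in the reads was not tested. AT1G17090 had 97 inclusion and 12 skipping reads in lefko, against 31 inclusion reads and 1 skipping read in wild type. Its change of -7.07 points did not pass limma and was -3.03 without the second and -12.4 without the third set, where it passed (adjusted p = 0.0222). In all 10 lower introns skipping reads were more numerous in lefko, and in 7 of them inclusion reads were too. In 9 of the 10, all but PGN, the wild type had at most 3 skipping reads in total, as in 17 of the 26 lower events among the other retention events.

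Behind the 41 higher shares, inclusion reads were more numerous in lefko for 35 introns and skipping reads were fewer for 34, with both true for 28. The median ratio of lefko to wild type was 1.94 for inclusion reads and 0.731 for skipping reads, on deposited counts that carry no normalization to library size. The 6 introns with a higher share but fewer inclusion reads in lefko were those of BT1, JAZ10, LOL1, WRI4, AT5G01570 and DOG1. In 7 introns, among them ATSRL1, AT1G15280 and AT1G10890, skipping reads were more numerous too. In the bulk RNA used here a change in transcription or in the stability of either form cannot be told apart from a change in splicing.

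**Figure D4:**
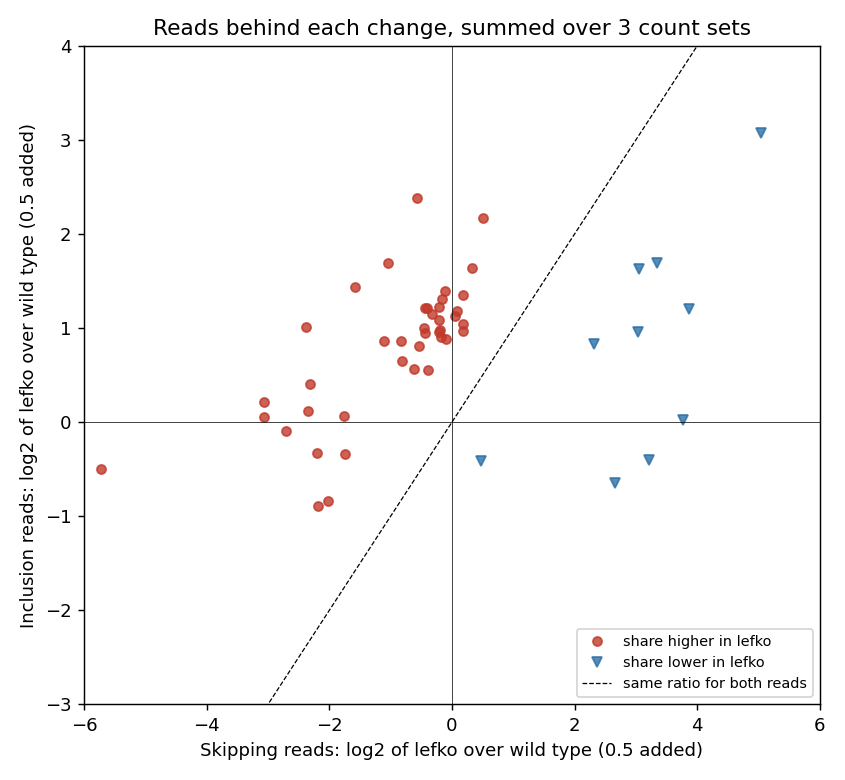
Log2 ratio of lefko over wild type for inclusion reads (vertical axis) against the same for skipping reads (horizontal axis), summed over 3 count sets with 0.5 added, for each of the 51 introns; the dashed line marks equal ratios. The 10 introns with a lower share all lie to the right of 0, with more skipping reads in lefko, and most of the 41 others lie at upper left.

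All 29 introns within coding sequence would bring an in-frame stop codon if retained in the annotated transcript, with 3 to 35 stops each. The first stop began at a median intron base of 30, within the first 60 bases in 22 introns and at the latest at base 282, in AT1G09490. Among the other coding retention events 89 of 112 (79.5%) hold such a stop, and of the 17830 annotated coding introns over 250 nt 99.4% do, so the 29 of 29 is what long introns of this genome hold. Less than 50% of the coding sequence lies before the intron in 19 of the 29. Intron phases 0, 1 and 2 were found in 10, 11 and 8 of them. Of the 8 of phase 2, 7 have the stop at intron base 2, a property of 50.3% of the 26166 annotated coding introns of phase 2. CHAL is the one of phase 2 without it.

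**Figure D5:**
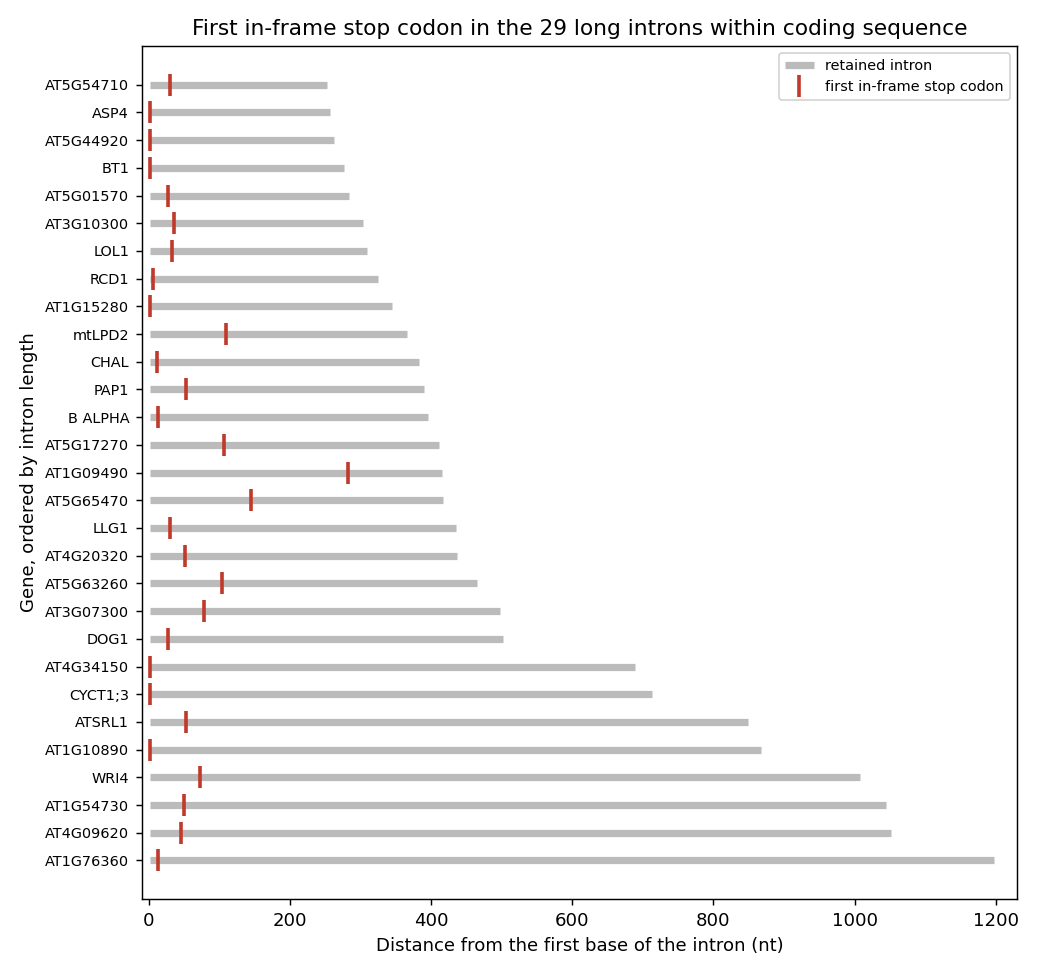
The 29 long introns within coding sequence, drawn to scale as bars from the first intron base (horizontal axis, nt), with a tick at the first in-frame stop codon; genes run down the page by length, from 253 nt in AT5G54710 to 1198 nt in AT1G76360. In 22 introns the tick lies within the first 60 bases.

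At their ends, 49 of the 51 introns begin with GT and end with AG, and 2, in LLG1 and AT1G76360, begin with GC, where 98.7% of all annotated introns have GT and AG. The letters GTNNG, with G as the fifth intron base, were found at the start of 17 of the 51 introns (33.3%), searched on the sense strand only, against 39.7% of all retention events and 48.7% of annotated introns. All 51 introns were lower in GC than their flanking exons, with medians of 32.9% in the introns and 42.2% in the exons, and annotated introns over 250 nt also have a median of 33.0%. The lowest GC content was 21.3%, in AT5G54710, and the highest 39.4%, in RCD1. The intron was the first of its transcript in 21 genes. An annotated transcript of the gene retains the intron in 35 of the 51 (68.6%), against 83.2% of all retention events. None was annotated as retained for 16 genes, among them AT5G54710, RCD1, LLG1, AT4G34150 and AT1G76360.

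Longer retention events are listed for 5 of the genes as a second event, and all 5 were higher in lefko, against 83.2% of all retention events. Those of JAZ10, AT3G07300, AT1G01240 and AT4G32250 share a splice site with the first event of the gene. Their reads can be the same reads, so they are not separate observations. Besides those of BT1, JAZ10 and AT3G07300 given above, the second event of AT1G01240 (625 nt) rose by 15.9 points and that of AT4G32250 (544 nt) by 7.92 points. The second event of AT4G32250 ends 4 nt from an annotated intron and had 1 skipping read in lefko and 12 in wild type. An event of another class is listed on the junction of 5 of the 51 introns, in PAP1, DOG1, AT5G08480, CYCT1;3 and AT1G54730, and its skipping reads can be the same reads. Inclusion reads of these introns may also come from alternative exon sequence that lies within the listed intron, which was not tested. In CYCT1;3 an exon skipping event is among those listed, so its share need not be one of retention of the whole intron.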

How the data were processed

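The authors deposited 5 tables of splicing events, which per the file headers give inclusion and skipping read counts, a p-value and an FDR per event, with 3 counts per genotype in each cell. Per the submitters' processing notes, HISAT2 2.0.4 and the TAIR10 genome were used. The program that called events, and how it counted, is not given in the sources used here. From these counts the inclusion share, its mean and SD over 3 count sets and the change were computed as deposited, with no correction for length. Limma 3.58.1 (R 4.3.3) was fitted to log2 odds with 0.5 added to both counts, a set with 0 reads being left out of the fit, with Benjamini-Hochberg adjustment over 343 events, and was checked on simulated counts. With 1 labelled sample per genotype, no test over samples is possible.

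Exon starts are counted from 0 in the tables, so 1 was added. Intron places, stops and sequences were read from RefSeq TAIR10.1, whose sequence versions are those of the tables, using the listed gene's own transcripts only, and the coding transcript with the longest coding sequence where several splice the intron. No per-sample column was left unused. Limits of a count of 0 (3 reads) cover counting error only. Counts per set are printed for the long introns with the 3 lowest FDRs, the 10 largest rises and all falls with at least 20 reads in each set, the 3 nearest above the length limit and the 3 longest; other introns with printed counts were added after their values were seen. The members, word lists and tests were chosen with earlier results of these data known.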

Additional observations from a re-analysis of the deposited data

How the results depend on the processing

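The count of introns higher in lefko, 41 of 51, stayed within 1.5 times and above the count of lower ones under all alternatives run: 28 of 33 at an FDR of at most 0.01, 34 of 36 with a change of at least 10 points, 35 of 40 with at least 20 reads in each set, 58 of 69 over 200 nt, 33 of 41 over 300 nt, 43 of 53 with each gene at its longest intron, 37 of 46 without junctions shared with another class, 39 of 46 without introns that overlap another gene, and 40 to 41 with a count set left out. Alternatives that only leave out introns keep the direction of each intron that stays, so they do not test it. The choice of at least 10 points also keeps only 2 of the 10 lower introns. The median change of 16.4 points was 22.0 among changes of at least 10 points, which that choice raises by construction. It lay between 14.7 and 16.4 with a set left out and between 15.9 and 20.1 points under the other alternatives, among them inclusion reads divided by 2 (17.0) or by length over 100 nt (16.1). Dividing by 2, run for all 51 introns after seeing the data, made 19 changes over 1.5 times as large and changed no direction. In the 47 introns whose sets do not overlap, the division could not change the direction. Shares with a set left out were also extended to the introns outside the naming rule after seeing the data. Dividing by 2 moved 8 of the 19 introns that the naming rule picks by more than their spread. The 45 limma calls became 42 with the set number as a replicate block, AT1G01240, AT5G17270 and AT5G48620 being no longer under 0.05, 45 with 0.1 added, where LBD37 was gained and AT1G01240 lost, and 44 with 1 added, where AT5G08480 was lost. They became 37 to 40 with a set left out, where each genotype has 2 sets, and 39 of 40 among events with at least 20 reads. Sets of the same number did not deviate together (correlations -0.068, -0.077 and -0.095 over 245 events), and between different numbers the correlations ran from -0.071 to 0.146, with 0.135, 0.126 and 0.146 for lefko sets 3, 1 and 2 with wild-type sets 1, 2 and 3. No label pairs the sets, and no crossed pairing was run. Under 20 reads in some set, as for 11 introns, limit what can be called.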
